A study of Mus musculus with 2 samples.

Results

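The cells described here carry the label of tumor-infiltrating CD4 helper T cells and had at least 1 counted transcript of Cd40lg, the gene of CD40 ligand. They are called Cd40lg+ cells below. The study sorted TCR-β+ T cells from B16 melanoma and from B16–IL-33 melanoma, a B16 line engineered to overexpress the secreted form of the cytokine IL-33, both transplanted into mice of the C57BL/6 background. The labels list no further treatment, and the IL-33 made by the engineered line is the labelled difference between the tumors. The cells of both tumors were labelled with hashtag antibodies, pooled, and sequenced as 1 droplet library of 5' gene expression with 1 hashtag library and 1 T cell receptor (TCR) table; 454 of the 455 cells described here were in the hashtag library and 298 in the TCR table. All values therefore come from 1 library, cells are not replicates of an animal, and nothing here was tested over animals. The intervals given are 95% intervals that cover counting error only.

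Cd40lg+ cells were chosen by their own unique molecular identifiers (UMIs), which count captured transcripts. Of 14035 barcodes, 9078 passed the study's limits on detected genes and mitochondrial UMIs. Of these, 455 cells (5.01%) had a UMI of a CD3 gene (Cd3d, Cd3e or Cd3g) and of Cd40lg, and none of Foxp3, Cd8a, Cd8b1, Zbtb16, Ccr7, Igfbp4, Dapl1, Ifng or Pdcd1. The rule thus left out cells with a counted UMI of Foxp3, the gene of regulatory T (Treg) cells, or of CD8. It also left out cells with a UMI of genes of naïve, interferon-γ+ or PD-1+ T cells. Treg cells whose Foxp3 transcripts were not captured may remain in both sets, as the Treg genes described below bear on. The comparison cells were the 700 cells that met the same conditions with a UMI of Cd4 and none of Cd40lg, and a further 1314 cells had neither gene. CD8+ T cells whose CD8 transcripts were not captured may also remain. As Cd4 was asked of comparison cells only, their share may differ between the sets, which was not tested. Cd40lg+ cells had a median of 2338 UMIs (324 to 9220) and comparison cells a median of 2139 (281 to 8356). As the set was selected on Cd40lg, each expression value below is a description of the chosen cells and not a test.

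CD40 ligand is a membrane protein of the TNF superfamily that CD4+ T cells place on their surface after their receptor has been engaged. Its receptor CD40 is carried by dendritic cells, macrophages and B cells, and binding licenses these cells to present antigen and, in B cells, to switch antibody class. Transcription of Cd40lg follows calcium entry and NFAT, and in tumors the contact is known as a route by which CD4+ help reaches CD8+ T cells through dendritic cells.

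Cd40lg lies on chromosome X from 57212143 to 57224042 on the plus strand (mm10). Most Cd40lg+ cells sat just inside the limit of the rule: 327 of 455 (71.9%) had 1 UMI, 85 had 2, 28 had 3, 12 had 4, 2 had 5 and 1 had 6. Just outside it were the 700 comparison cells with 0 Cd40lg UMIs. A cell with 1 UMI and a cell with none therefore differ by a single captured transcript, and cells whose Cd40lg transcripts were not captured may lie among the comparison cells.

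The label of CD4 helper T cells has 4 markers, of which Cd40lg is fixed by the rule and checks nothing. The others are given here. Cd4, the class II coreceptor, was not asked of Cd40lg+ cells and was counted in 220 of 455 (48.4%, interval 43.7 to 53.1%), close to its share of 50.9% in Foxp3+ T cells and above the 13.9% in CD8+ T cells, where its UMIs set a level of background. The 220 cells with Cd4 had a median of 2588.5 UMIs and the 235 without it a median of 2094. Tnfsf8, which encodes CD30 ligand, was counted in 52 Cd40lg+ cells (11.4%) and in 9.57% of comparison cells. Tbc1d4, a Rab GTPase-activating protein that controls glucose transporter traffic, was counted in 61 (13.4%) and in 8.43%. Cd4 was thus counted about as often as in Foxp3+ T cells, while Tnfsf8 and Tbc1d4 were each seen in a minority of the cells. In Foxp3+ T cells their levels were lower, at 11.4 CPM (counts of a gene scaled to a common total) for Tnfsf8 and 12.03 for Tbc1d4, against 71.5 and 62.2 in Cd40lg+ cells. Neither marked the set off from its neighbors: cells with Pdcd1 were at 85.0 for Tnfsf8 and 79.8 for Tbc1d4, and cells with naïve genes at 70.3 for Tnfsf8.

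Cd40lg was also counted outside the chosen cells. Conventional T (Tconv) cells are here the 4303 cells with a CD3 UMI and none of Foxp3, Cd8a or Cd8b1. Of these, 929 had a Cd40lg UMI and Cd40lg+ cells made up 49.0% of those. The rest were left out for Ccr7, Igfbp4 or Dapl1 (232), Ifng (161), Pdcd1 (130) or Zbtb16 (24), with overlap. The summed level was 549 CPM in Cd40lg+ cells, where the rule fixes it. It was 178 (156 to 201) in Tconv cells with Ifng, 147 (129 to 168) in those with Pdcd1, 117 (104.5 to 130.3) in those with naïve genes and 107 (71.7 to 154) in T cells with Zbtb16. It was 36.1 (32.1 to 40.5) in Foxp3+ T cells and 24.2 (20.1 to 28.9) in CD8+ T cells. The lowest levels were in cells without CD3, at 19.4 (12.4 to 28.9), and in the CD3- cells with the macrophage genes Csf1r or C1q, at 7.72 (2.51 to 18.01). The order ran from Tconv cells to Treg cells to CD8+ T cells, and the intervals of CD8+ T cells and CD3- cells overlapped. From 178 down to 107 CPM each interval overlapped with the next, and the naïve-gene, Ifng and Pdcd1 sets share cells.

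**Figure D1:**
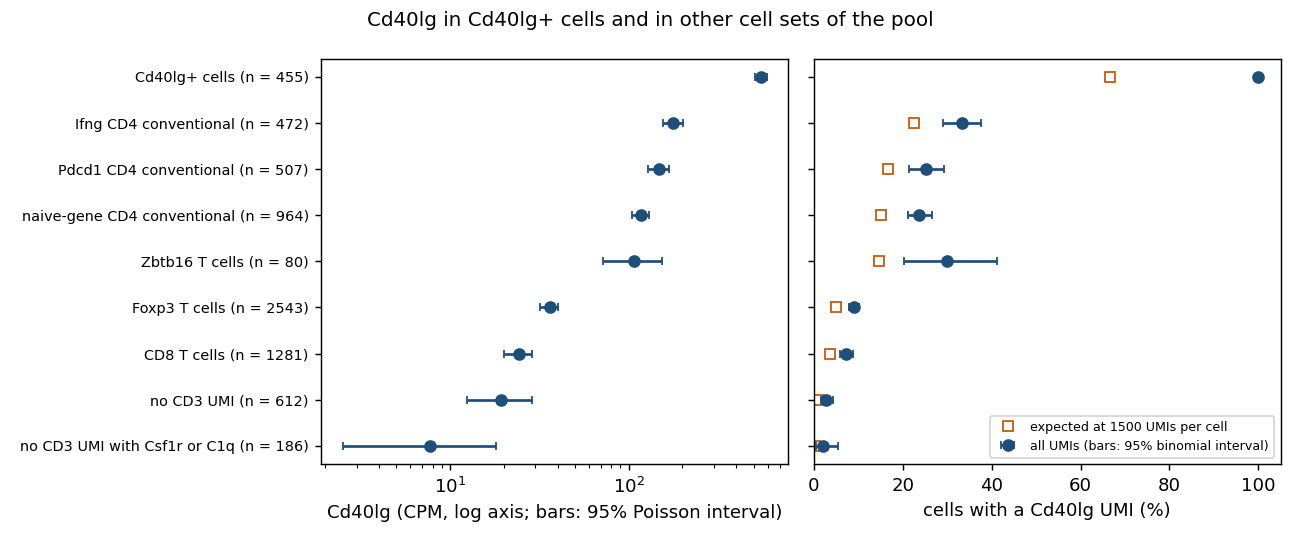
Cd40lg by cell set of the pool, with the number of cells in each label. Left, summed level in CPM on a log axis with Poisson intervals; right, percent of cells with a UMI with binomial intervals (circles) and the share computed for 1500 UMIs per cell (squares). The Tconv sets with Ifng, Pdcd1 or naïve genes sit between 117 and 178 CPM, Foxp3+ T cells at 36.1 and CD8+ T cells at 24.2; the level of 549 in Cd40lg+ cells is set by the rule.

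The shares of cells with a Cd40lg UMI, which were 33.3% in Ifng+ Tconv cells, 2.78% in CD3- cells and 2.15% in CD3- cells with Csf1r or C1q, were also computed for 1500 UMIs per cell, since median depth ranged from 1034 UMIs in CD3- cells to 3311 in CD8+ T cells. This left out 74 Ifng+, 100 Pdcd1+ and 81 naïve-gene Tconv cells, 413 Foxp3+ T cells, 120 CD8+ T cells and 377 CD3- cells, 69 of them with Csf1r or C1q, that were shallower. A UMI would then be counted in 22.5% of Ifng+, 16.6% of Pdcd1+ and 15.05% of naïve-gene Tconv cells, in 5.09% of Foxp3+ T cells, in 3.74% of CD8+ T cells in 1.21% of CD3- cells and in 0.338% of those with Csf1r or C1q, the same order as that of the levels.

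Set against comparison cells, the Cd40lg+ cells had more genes at a lower than at a higher level. Among 3559 genes with at least 100 UMIs in both sets together, 55 (1.55%) had a CPM at least 1.5-fold higher in Cd40lg+ cells and 195 (5.48%) at least 1.5-fold lower, and the median log2 ratio was -0.04. These percentages are the background for the gene lists that follow. The counts depended on the comparison cells: against all 2014 cells without a Cd40lg UMI, with or without Cd4, they were 97 and 499. More genes then reach 100 UMIs, so these counts are not out of the same 3559 genes, and their shares are not given. Receptors and cytokines were among the lower genes, and some of the highest ratios rested on few cells.

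Of the TNF superfamily ligands, the family of Cd40lg, 4 had enough UMIs besides Cd40lg, and 1 passed the fold. Tnf had 68 UMIs in 50 Cd40lg+ cells and 62 in 52 comparison cells, a ratio of CPM of 1.60 (1.12 to 2.30). Tnfsf8 stood at 71.5 against 62.4 CPM, a ratio of 1.15 (0.85 to 1.54), and Tnfsf11, which encodes RANKL, at 1.30 (0.89 to 1.89). Ltb, the lymphotoxin beta subunit and the most widely counted member of the family, did not differ beyond counting error, with a ratio of 0.96 (0.89 to 1.03). Below 100 UMIs, Fasl, the death ligand, had 47 UMIs in 37 Cd40lg+ cells and 27 in 25 comparison cells, a ratio of 2.54 (1.55 to 4.25). Its largest count in any Cd40lg+ cell was 3, and the share of cells was 8.13% against 3.57%.

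The other side of the ligand was nearly absent. Cd40 itself had 1 UMI in Cd40lg+ cells and 7 in comparison cells. None of the 6 tested genes of the adaptors and NF-κB subunits that act below CD40 passed the fold: Traf1 had a ratio of 0.92 (0.80 to 1.07), Nfkb1 1.22 (0.98 to 1.503) and Nfkb2 0.95 (0.72 to 1.25). Nfkb1 passed it, at 1.57 (1.18 to 2.10), when cells with an Ikzf2 or Il2ra UMI, 2 genes of Treg cells described below, were left out.

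Of the calcium, NFAT and early activation genes, 2 of 16 passed the fold upward and none downward, with a median log2 ratio of 0.21 against -0.04 over all genes. Nr4a1, an orphan nuclear receptor induced by TCR engagement, was at 232 against 151 CPM, a ratio of 1.54 (1.29 to 1.83). Dusp2, a nuclear phosphatase of MAP kinases, was at 318 against 195, a ratio of 1.64 (1.41 to 1.90). Junb (1.38, 1.30 to 1.45), Fosb (1.43, 1.22 to 1.66) and Ier2 (1.43, 1.26 to 1.62) were also above 1 by their counting intervals without reaching the fold. Others of the list were not above 1 by their intervals: Nfatc1, a factor activated by calcineurin, had a ratio of 0.99 (0.76 to 1.30), Nr4a3 (34 and 48 UMIs) one of 1.03 (0.65 to 1.64), and Egr1 lay below 1 at 0.80 (0.65 to 0.99). Of the 10 NF-κB feedback genes and the 12 proximal TCR signaling genes tested, 0 passed the fold in either direction, though Plcg1, at 1.39, was at 1.503 (1.01 to 2.25) without the Ikzf2 or Il2ra cells. Of 10 genes of glucose uptake and its regulators only Tbc1d4 passed, at 1.502 (1.07 to 2.11), and it was under the fold in most of the alternatives, at 1.15 to 1.48.

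Several of the 15 highest ratios came from many cells. Klrk1, which encodes the stress-ligand receptor NKG2D, had 72 UMIs in 46 Cd40lg+ cells and 38 in 29 comparison cells, a ratio of 2.77 (1.84 to 4.22). Dnajb1, an HSP40 cochaperone of the heat shock response, had a ratio of 2.23 (1.996 to 2.48) and was counted in 209 against 237 cells. Plac8, a small cysteine-rich protein, stood at 2.20 (1.86 to 2.60). Cxcr6, the receptor for CXCL16, was at 308 against 173 CPM, a ratio of 1.78 (1.52 to 2.08), and at equal depth was counted in 28.9% against 16.9% of cells. Cxcr6 was the only one of 7 tested chemokine receptors above the fold. Ccr2 (0.52, 0.45 to 0.61) and Ccr8 (0.52, 0.37 to 0.73) were among those below it, and Cxcr3 was alike in both sets, with a ratio of 1.00 (0.83 to 1.19).

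Some of these depended on where Cd4 was asked for. With Cd4 asked of neither set Klrk1 was at 1.42 and Plac8 at 1.31, and with Cd4 asked of Cd40lg+ cells too Dnajb1 was at 1.49 and Pde7a, a gene of the next group, at 1.36, all under the fold. Most of the others had smaller counts. Mfsd6 (2.05), Tespa1 (1.98), which acts in TCR-driven calcium signaling in thymocytes, Dcaf12 (1.96), Pde7a (1.96), a cAMP phosphodiesterase, Rpa3 (1.94), Rab37 (1.80) and Ncaph2 (1.80) each had 57 to 101 UMIs in Cd40lg+ cells and at most 3 in any of them. Serpinb1a was at 1.93 and kept a ratio of 1.75 without the top cell of each set. Cxcl2 and Cxcl10, both chemokine genes, depended on single cells. Of 210 Cxcl2 UMIs, 175 lay in 1 Cd40lg+ cell, which also held 14 UMIs of macrophage and monocyte markers, and without the top cell of each set the ratio turned from 2.36 to 0.57. For Cxcl10 31 of 73 UMIs lay in 1 cell, and the ratio went from 2.01 to 1.31.

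**Figure D2:**
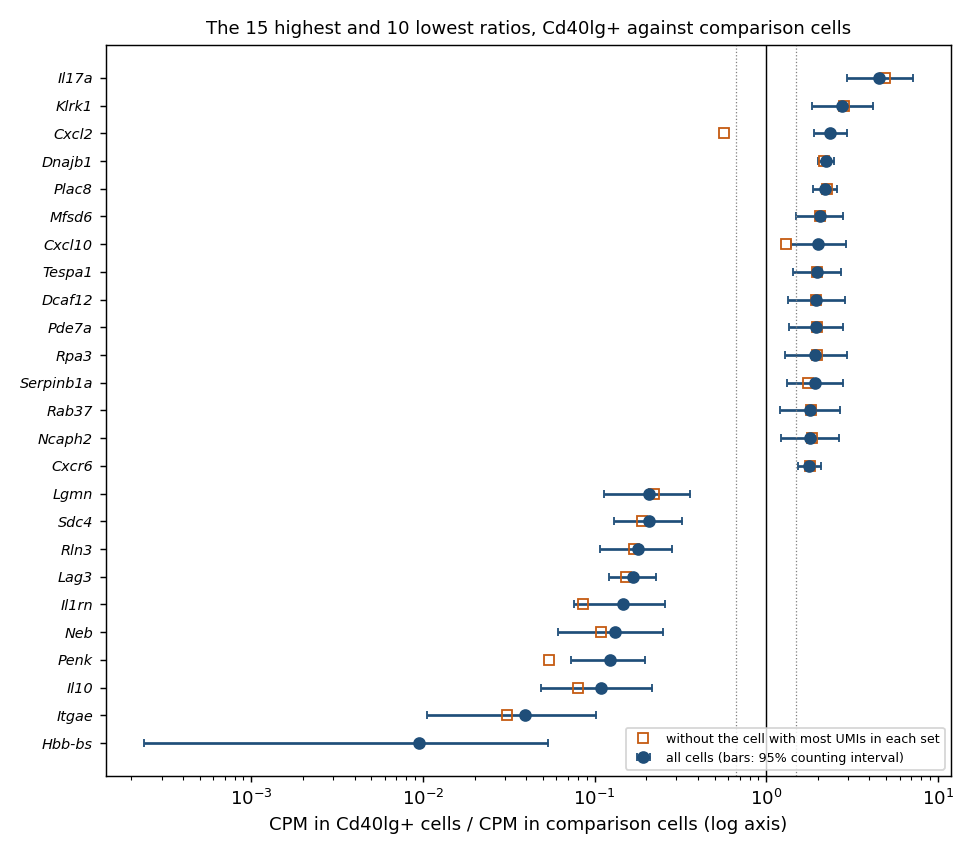
Ratio of CPM in Cd40lg+ cells to CPM in comparison cells, on a log axis, for the 15 highest and 10 lowest of 3559 genes, with counting intervals (circles) and without the cell with most UMIs in each set (squares). Dotted lines mark the 1.5-fold limits. Cxcl2 crosses from 2.36 to 0.57 when 1 cell of each set is left out, and Hbb-bs has no square because its only UMI in Cd40lg+ cells is then gone.

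Adhesion, inhibitory and cytokine-related genes were among the 10 lowest ratios. Itgae, the integrin CD103 that retains T cells in epithelia, had 4 UMIs in 4 Cd40lg+ cells and 149 in 92 comparison cells, a ratio of 0.039 (0.011 to 0.103). Lag3, an inhibitory receptor for class II, had 46 against 399 UMIs and a ratio of 0.17 (0.12 to 0.23). Il1rn, the interleukin-1 receptor antagonist, had a ratio of 0.15 (0.076 to 0.259), Penk, the enkephalin precursor, 0.12 (0.073 to 0.196), and the syndecan Sdc4 0.21 (0.13 to 0.32). Neb (0.13), Rln3 (0.18) and Lgmn (0.21) completed the list with Il10 and Hbb-bs. Without the Ikzf2 or Il2ra cells Il1rn was at 0.40 (0.18 to 0.84), Penk at 0.32 (0.17 to 0.59), Rln3 at 0.52 (0.22 to 1.17) and Sdc4 at 0.33 (0.14 to 0.72), and with no upper limit on detected genes Lgmn was at 0.60 and Il1rn at 0.35. With the Ikzf2 or Il2ra cells left out, Itgae and Neb had fewer than 20 UMIs in both sets together. Most of the UMIs behind their low ratios were thus in the cells left out. Hbb-bs, a hemoglobin gene, had 151 of its 155 comparison UMIs in 1 cell.

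Costimulatory and inhibitory receptors were mostly lower in Cd40lg+ cells. Of 12 costimulatory receptors tested, 6 were lower past the fold and 0 higher, with a median log2 ratio of -0.53. Tnfrsf9, which encodes 4-1BB, was at 193 against 606 CPM (ratio 0.32, 0.28 to 0.37), Tnfrsf4, which encodes OX40, at 307 against 805 (0.38, 0.34 to 0.43), and Tnfrsf18, which encodes GITR, at 376 against 764 (0.49, 0.44 to 0.55). Cd27 (0.36), Cd2 (0.66) and Il2ra (0.27) were the others. Cd28, the coreceptor of priming, was alike in both sets at 353 and 340 CPM, a ratio of 1.04 (0.91 to 1.18), and Icos had a ratio of 0.75 (0.67 to 0.83) that did not reach the fold. Without the Ikzf2 or Il2ra cells Icos was at 1.065 (0.91 to 1.24). Of 5 inhibitory receptors 3 were lower: Lag3, Tigit (0.36, 0.30 to 0.43) and Ctla4 (0.51, 0.45 to 0.57).

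Of 9 Treg genes tested 6 were lower and 0 higher, with a median log2 ratio of -0.99; all but Ikzf2 and Ccr8 also stand in the costimulatory or inhibitory lists. Ikzf2, which encodes Helios, was at 122 against 466 CPM (0.26, 0.22 to 0.31). An Ikzf2 or Il2ra UMI was present in 109 of 455 Cd40lg+ cells (24.0%), 350 of 700 comparison cells and 88.5% of Foxp3+ T cells, although neither set had a Foxp3 UMI. When the cells with either gene were left out, 346 Cd40lg+ and 350 comparison cells remained, and 30 genes were higher (1.39%) and 41 lower (1.90%) of 2157. Without them Ctla4 was at 0.71 (0.60 to 0.86), Tigit at 0.69 (0.53 to 0.89), Tnfrsf18 at 0.69 (0.59 to 0.81), Cd27 at 0.71 (0.49 to 1.02), Cd2 at 0.97 (0.83 to 1.12), Ccr2 at 0.93 (0.73 to 1.19) and Ccr8 at 0.91 (0.50 to 1.65), none of them past the fold any more. Lag3 stayed at 0.17 (0.092 to 0.29), Tnfrsf9 at 0.37 (0.28 to 0.50), Tnfrsf4 at 0.57 (0.48 to 0.70), Cxcr6 at 1.66 (1.37 to 2.02) and Klrk1 at 2.01 (1.29 to 3.19). On the higher side Tnf was then at 1.33 (0.85 to 2.10), Nr4a1 at 1.46 (1.16 to 1.84), Dusp2 at 1.38 (1.15 to 1.66) and Tbc1d4 at 1.15 (0.75 to 1.77), all under the fold, and Fasl was at 1.66 (0.91 to 3.104).

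**Figure D3:**
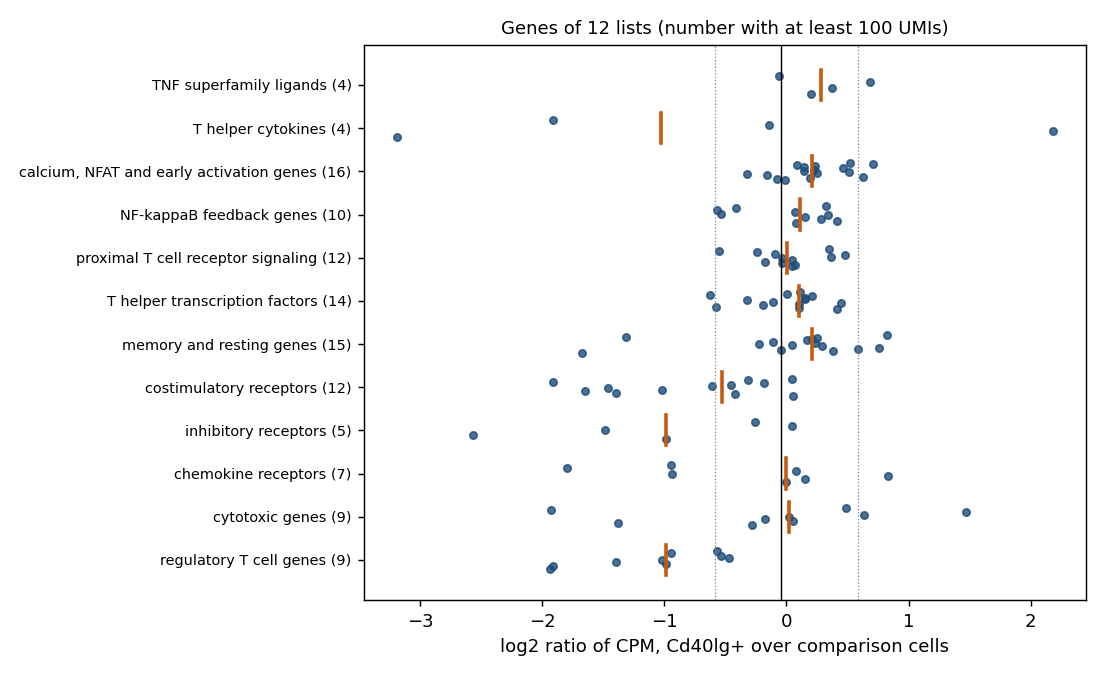
log2 ratio of CPM, Cd40lg+ over comparison cells, for the genes of 12 lists with at least 100 UMIs (points) and the list median (orange bars); the number of genes is in each label. The black line is the median of all 3559 genes and dotted lines mark the 1.5-fold limits. Medians of inhibitory receptors and Treg genes lie at -0.99, and that of the calcium, NFAT and early activation genes at 0.21.

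Memory and resting genes went in both directions, 3 of 15 higher and 2 lower. Klf2, which maintains the exit receptors of recirculating T cells, was at 1094 against 728 CPM (1.503, 1.39 to 1.63), Klf3 at 1.69 (1.30 to 2.21) and Ly6c2 at 1.77 (1.48 to 2.11). Without the Ikzf2 or Il2ra cells these were at 1.38, 1.36 and 1.32. Among the lower genes was Ly6c1, at 0.40 (0.24 to 0.65). Cells with a UMI of the naïve genes Ccr7, Igfbp4 or Dapl1 had been excluded from both sets. Tcf7, the stem-like memory factor, had a ratio of 1.31 (1.11 to 1.53), but of 0.97 (0.81 to 1.17) without the Ikzf2 or Il2ra cells. Of 9 cytotoxic genes Klrk1 and Klrd1 were higher, and Gzmb (0.38, 0.34 to 0.44) and Klrg1 (0.26, 0.19 to 0.36) lower. Without the Ikzf2 or Il2ra cells Gzmb was at 0.91 (0.72 to 1.15) and Klrd1 at 1.23 (0.87 to 1.75), both inside the fold, and Gzma, at 0.82 with them, was at 0.41. Of 4 chemokine ligands, Cxcl10 was higher and Ccl3 (0.54) and Ccl4 (0.40) lower; without the Ikzf2 or Il2ra cells Ccl3 was at 1.11 (0.71 to 1.73) and Ccl4 at 0.63 (0.48 to 0.82). Of 8 interferon-induced genes Rsad2 (0.48) was lower. Of 4 tested cell cycle genes 2 were lower, Mki67 (0.53, 0.33 to 0.82) and Stmn1 (0.64, 0.46 to 0.87), and none higher. Without the Ikzf2 or Il2ra cells Mki67 was at 0.66 (0.35 to 1.20) and Stmn1 at 0.70 (0.46 to 1.06), neither beyond counting error.

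Few lineage factors of T helper cells differed by the fold: of 14 tested, 0 were higher and 1, Prdm1, lower (0.65, 0.44 to 0.94), though at 1.17 (0.63 to 2.21) without the Ikzf2 or Il2ra cells. Rora, a nuclear receptor, was at 1.41 (1.19 to 1.67) and passed the fold without these cells, at 1.85 (1.47 to 2.34). Gata3, the type 2 factor, was counted in 120 Cd40lg+ cells and had a ratio of 1.08 (0.88 to 1.31). Tbx21, the type 1 factor, was counted in 44 (1.33, 0.90 to 1.98), in 12 of them together with Gata3. The follicular helper genes Bcl6, Il21 and Cxcr5 were counted in 6, 4 and 3 cells. At these depths a cell with 0 UMIs may still express the gene. Of 4 tested follicular helper genes 2 were lower, Izumo1r (0.46, 0.37 to 0.56) and Il6st (0.43, 0.27 to 0.66), and without the Ikzf2 or Il2ra cells they were at 0.74 (0.54 to 1.02) and 0.58 (0.29 to 1.13). Il2, the growth factor of activated helper cells, was counted in 15 cells, always as 1 UMI, and Tnf in 50. No cell held both, but at these counts few such cells would be seen in any case.

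Effector cytokines were counted in few Cd40lg+ cells, some of which held many UMIs. Il17a, the highest ratio among genes with at least 100 UMIs, had 90 UMIs in 7 Cd40lg+ cells, with 36, 23, 17, 10, 2, 1 and 1 in each. The 7 comparison cells with Il17a had 13, 6, 4, 2, 2, 1 and 1. These were 1.54% of Cd40lg+ and 1.00% of comparison cells, and the ratio of 4.53 (2.95 to 7.15) holds both this share and the UMIs per cell; its interval does not include the variation between cells. Of the 7 cells, 6 had at least 2 Cd40lg UMIs, against 128 of all 455. None of them held Il22, which was counted in only 7 Cd40lg+ cells, too few to read the lack of overlap.

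No cell held both Il13 and Il17a, which were counted in 8 and 7 Cd40lg+ cells, too few to read the lack of overlap. Il13 had 48 UMIs in 8 Cd40lg+ cells, with 24, 11, 6, 2, 2, 1, 1 and 1 in each, and 3 UMIs in 2 comparison cells, a ratio of 23.4 (7.53 to 117) that rests on these few cells. Il5 had 13 UMIs in 3 Cd40lg+ cells and 0 in comparison cells, a ratio of 6.33 when comparison cells are set to a floor of 3 counts. Il4 had 36 UMIs in 18 Cd40lg+ cells and 18 in 14 comparison cells, a ratio of 2.92 (1.62 to 5.47), which was 1.78 (0.91 to 3.59) without the Ikzf2 or Il2ra cells; for Il13, 22 against 3 UMIs were then left. Of the 8 Il13+ cells, 6 also held Gata3, 4 held Il4, 4 held Il1rl1, the IL-33 receptor, and 2 held Il5. Il1rl1 itself was counted in 23 Cd40lg+ cells and had a ratio of 0.72 (0.50 to 1.04). Il22 had similar counts in both sets, 28 UMIs in 7 cells against 25 in 8, with 16 and 13 of them in the top cell.

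Il10 and Areg, a regulatory cytokine and the epidermal growth factor receptor ligand amphiregulin, were the 2 of 4 tested cytokines below the fold. Il10 had 9 UMIs in 6 Cd40lg+ cells and 120 in 60 comparison cells (0.11, 0.049 to 0.215). Areg had 141 UMIs in 34 cells against 774 in 117 (0.27, 0.22 to 0.32), and 38 of the 141 lay in 1 cell. Both stayed low without the Ikzf2 or Il2ra cells, at 0.10 (0.020 to 0.33) for Il10 and 0.29 (0.20 to 0.40) for Areg.

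**Figure D4:**
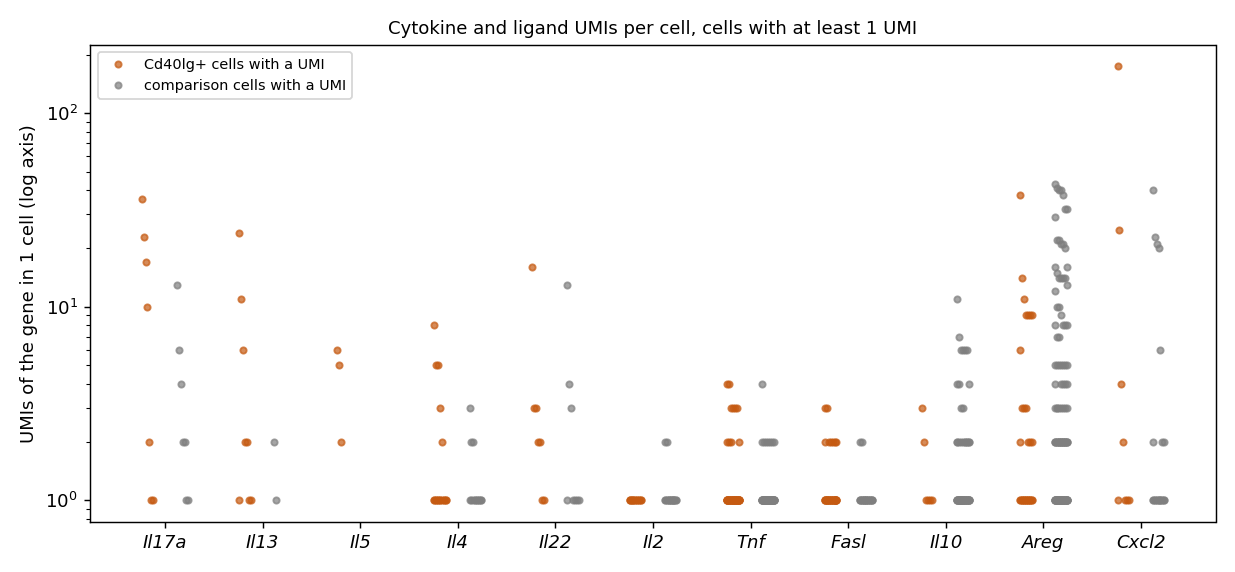
UMIs of cytokine and ligand genes in each cell that had any, on a log axis, for Cd40lg+ cells (orange) and comparison cells (gray); each point is a cell. Il17a and Il13 reach 36 and 24 UMIs in single Cd40lg+ cells, Tnf and Fasl do not exceed 4, and Il10 and Areg lie mostly in comparison cells.

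The TCR table was not used by the rule, and in it the Il17a+ cells shared a V segment. A beta chain was read in 6 of the 7, and all 6 used TRBV16 (100%, 54.1 to 100%), which was used by 27 of 275 Cd40lg+ cells without Il17a (9.82%, 6.57 to 14.0%). Outside the set, 1 of 6 Il17a+ comparison cells used it. So did 3 of 19 Il17a+ Foxp3+ T cells and 2 of 6 Il17a+ CD8+ T cells. It was used by 0 of 4 Il17a+ cells with neither Cd40lg nor Cd4. Among Il17a+ Tconv cells left out by the rule, 0 of 3 with Pdcd1, 0 of 1 with Ifng and 0 of 1 with naïve genes used it. Of all cells without Il17a, 9.51% used it. The shared use of TRBV16 by the Il17a+ cells of the set was noticed in the data and is given as counts. Trbv16 lies on chromosome 6 from 41151740 to 41152230 (mm10, plus strand). The complementarity-determining region 3 (CDR3), where the V, D and J segments join, is shown for these beta chains because they make clear which cells share a rearrangement; letters between the conserved first and last codons are in capitals, and the number gives the Il17a UMIs of the cell.
Cells with 36 and 23 UMIs, TRBV16 to TRBJ2-4: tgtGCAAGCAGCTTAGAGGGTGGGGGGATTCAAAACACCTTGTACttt
Cells with 17 and 1 UMIs, TRBV16 to TRBJ2-7: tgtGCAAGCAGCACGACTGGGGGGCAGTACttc
Cell with 2 UMIs, TRBV16 to TRBJ1-1: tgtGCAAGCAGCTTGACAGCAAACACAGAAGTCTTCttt
Cell with 1 UMI, TRBV16 to TRBJ2-7: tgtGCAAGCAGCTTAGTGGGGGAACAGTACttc

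The first of these chains was found among quality-filtered cells only in those 2 cells, which had different alpha chains, TRAV5D-4 and TRAV3D-3. The second was found in 10 cells, of which 6 were Cd40lg+ cells, 1 a comparison cell and 3 other Tconv cells, spread over 3 clonotypes; 3 of the 10 had Il17a. The fourth was found in 7 cells, of which 4 were Foxp3+ T cells and 1 a Cd40lg+ cell. So the 6 Il17a+ cells held 4 different rearrangements of the same V segment. The interval of 54.1 to 100% for their use of TRBV16 takes the 6 cells as independent, although some share a beta chain.

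Over all beta chains, few V segments differed beyond counting error. TRBV16 made up 33 of 296 chains in Cd40lg+ cells (11.2%) and 37 of 406 in comparison cells (9.11%), a difference of 2.04 percentage points (-2.62 to 6.94). Of the 15 beta V segments compared, TRBV13-3 was the only one whose difference interval left out 0, at 6.76% against 3.20% (0.16 to 7.34 points). For alpha chains, no interval of the 9 segments compared left out 0.

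The share of cells in expanded clones was higher among Cd40lg+ than among comparison cells. A clonotype was assigned to 298 of 455 Cd40lg+ cells (65.5%) and to 60.6% of comparison cells. Of these 298, 43 (14.4%, 10.6 to 18.9%) were in a clone of at least 2 quality-filtered cells, against 39 of 424 comparison cells (9.20%, 6.62 to 12.4%), a difference of 5.23 percentage points (0.30 to 10.4). In clones of at least 3 cells the shares were 7.38% and 3.77%. Counted by identical beta CDR3 sequences the shares were 25.3% and 20.8%, and the difference of 4.42 points (-2.25 to 11.2) was within counting error. Cells of 1 clone share their origin, which these intervals do not cover. Among the Tconv cells left out by the rule, the share was 14.4% with Ifng, 12.5% with Pdcd1 and 2.10% with naïve genes, and it was 8.54% in Foxp3+ and 23.1% in CD8+ T cells.

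The 298 cells held 289 clonotypes, of which 34 had at least 2 cells in the library and 6 had at least 2 Cd40lg+ cells. The 34 clones held 100 cells: 43 Cd40lg+ cells, 8 comparison cells, 40 other Tconv cells, 4 Foxp3+ T cells and 5 CD8+ T cells. Of the 40 other Tconv cells, 14 had Ifng, 6 had Pdcd1, 4 had naïve genes, 12 had Cd40lg, and 17 had neither Cd40lg nor Cd4 and none of the excluding genes, with overlap among the first 4 groups. Of the clone mates outside the set, most were thus other Tconv cells. In 6 clones a Cd40lg+ cell shared its clonotype with a Foxp3+ or CD8+ T cell, and in 4 of these both chains were read.

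**Figure D5:**
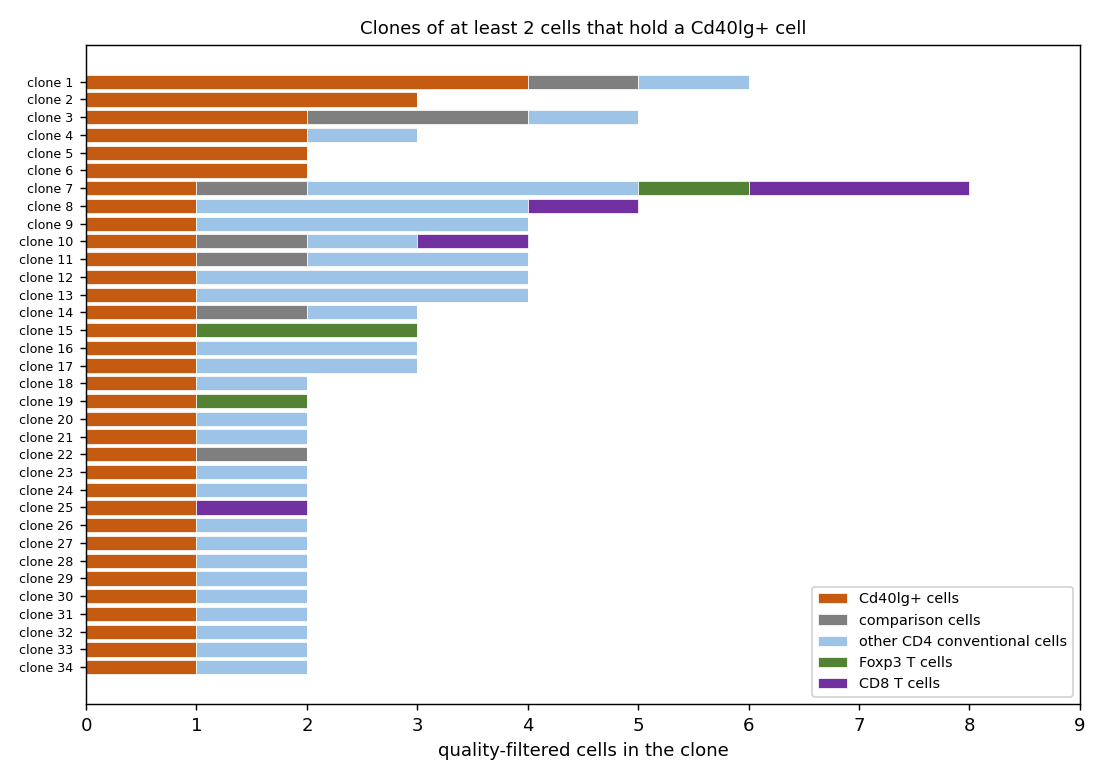
Number of quality-filtered cells in each of the 34 clones of at least 2 cells that hold a Cd40lg+ cell, by kind of cell. Clone 1 has 4 Cd40lg+ cells of 6, clones 2, 5 and 6 hold Cd40lg+ cells only, and clone 7, the largest with 8 cells, spans Cd40lg+, comparison, other Tconv, Foxp3+ and CD8+ T cells.

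The clones with most Cd40lg+ cells and the largest mixed clone are shown by their CDR3 sequences, with the same use of capitals. Clone 1 (TRBV16, TRBJ2-7) had 4 Cd40lg+ cells with 4, 2, 1 and 1 Cd40lg UMIs. Its beta chain is the second of those given above for Il17a+ cells, and clone 4, with 2 Cd40lg+ cells, carries the same beta chain without an alpha chain. Clones 2 and 3 had 3 and 2 Cd40lg+ cells. Clone 7 had 1 Cd40lg+ cell, 1 comparison cell, 3 other Tconv cells, 1 Foxp3+ and 2 CD8+ T cells.
Clone 1, alpha (TRAV16D-DV11, TRAJ38): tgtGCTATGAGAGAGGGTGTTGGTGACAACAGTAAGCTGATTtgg
Clone 2, beta (TRBV13-2, TRBJ2-7): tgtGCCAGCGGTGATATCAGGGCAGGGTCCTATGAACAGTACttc
Clone 3, beta (TRBV12-1, TRBJ1-1): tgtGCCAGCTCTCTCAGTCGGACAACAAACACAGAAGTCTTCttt
Clone 3, alpha (TRAV13-4-DV7, TRAJ57): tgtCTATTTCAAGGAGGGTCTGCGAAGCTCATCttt
Clone 7, beta (TRBV13-1, TRBJ1-1): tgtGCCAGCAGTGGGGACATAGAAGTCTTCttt
Clone 7, alpha (TRAV7-6, TRAJ52): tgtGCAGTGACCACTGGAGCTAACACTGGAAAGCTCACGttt

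Some Cd40lg+ cells carried receptors or genes of unconventional T cells. Invariant natural killer T (NKT) cells are known by an alpha chain that joins TRAV11 to TRAJ18. It was found in 8 of 186 Cd40lg+ cells with an alpha chain (4.30%, 1.87 to 8.30%) and in 6 of 297 comparison cells (2.02%, 0.74 to 4.35%). Cells with neither Cd40lg nor Cd4 had it in 16 of 363 (4.41%). Its share was 3.54% in Tconv cells with Ifng, 1.18% with Pdcd1 and 0.98% with naïve genes. Of the 8 Cd40lg+ cells 4 had a Cd4 UMI, which was asked of comparison cells only. The chain was also in 16 of 27 T cells with Zbtb16, the factor of NKT cells (59.3%), and in 2 of 1396 Foxp3+ T cells. It was in 0 of 637 CD8+ T cells, which allows up to 0.471% by a floor of 3 counts and 0.577% by the exact interval. None of the Cd40lg+ cells had a Zbtb16 UMI, since the rule excludes it. The most frequent form, carried by 4 of the 8 cells, and that of the T cells with Zbtb16, carried by 7 of 16, are shown so that the sequences can be set side by side.
Cd40lg+ cells, TRAV11 to TRAJ18: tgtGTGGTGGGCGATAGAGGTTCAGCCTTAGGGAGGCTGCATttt
T cells with Zbtb16, TRAV11 to TRAJ18: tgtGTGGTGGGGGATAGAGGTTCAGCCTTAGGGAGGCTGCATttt

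A UMI of the γδ TCR constant genes was present in 21 Cd40lg+ cells (4.62%) and in 9 comparison cells (1.29%), and 17 of the 21 also had a productive beta chain. The summed level of the γδ T cell markers, which include Il17a, was 114 against 25.6 CPM, with 3 of 9 markers at 0 in each set. Macrophage and monocyte markers were lower in Cd40lg+ cells, at 109 against 207 CPM, against 11029 in CD3- cells with Csf1r or C1q; 4 Cd40lg+ and 8 comparison cells had 10 or more UMIs of Lyz2, Csf1r, C1qa, C1qb, C1qc, Cd68 and Cd14 together. Class II and dendritic cell genes were at 405 against 562. In the largest case 1 Cd40lg+ cell held 380 class II UMIs, and most of the level of 405 CPM rests on that cell. Without the Ikzf2 or Il2ra cells Cd74, a gene of this list, had 35 against 282 UMIs, a ratio of 0.12 (0.084 to 0.174). B cell, NK cell, platelet and mast cell markers were at 126, 112, 5.11 and 1.70 CPM in Cd40lg+ cells and at 201, 122, 9.91 and 3.497 in comparison cells, with Cd79a, Ms4a1, Ncr1 and Mcpt8 at 0 in Cd40lg+ cells. Of the 6 B cell markers 4 were at 0 in each set. The rest, which include Ighm, gave a UMI in 99 Cd40lg+ cells (21.8%) and 199 comparison cells (28.4%). Melanoma markers were at 19.6 against 25.1. The part of these cells in the ratios above was not tested, beyond leaving out the γδ-gene cells, which left 49 genes higher and 191 lower.

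Within the Cd40lg+ cells, the 128 cells with at least 2 Cd40lg UMIs (median 2719 UMIs in all) were set against the 327 cells with 1 (median 2233). Of 1488 genes with at least 100 UMIs, 21 (1.41%) were at least 1.5-fold higher and 27 (1.81%) lower. Tnfsf8 had 44 UMIs in 24 of the 128 cells and 40 in 28 of the 327, a ratio of 2.21 (1.41 to 3.48). Tnfsf8 was thus at 51.0 CPM just inside the limit of the rule and at 62.4 in comparison cells, just outside it. Batf, a partner of Jun proteins (1.71, 1.28 to 2.30), Ctla4 (1.76, 1.43 to 2.16) and Areg (1.87, 1.32 to 2.64, with 38 of 68 UMIs in 1 cell) were higher. Furin, a proprotein convertase named here after its value was seen, had the highest ratio, 2.43 (1.71 to 3.47). Ly6c2 (0.52, 0.38 to 0.70) and Izumo1r (0.47, 0.29 to 0.74) were lower. Cd4 (1.03, 0.81 to 1.29), Tbc1d4 (1.11, 0.66 to 1.83), Tnf (0.90, 0.51 to 1.53) and Cd69 (0.92, 0.77 to 1.10) did not differ beyond counting error. Of the 90 Il17a UMIs 89, and of the 48 Il13 UMIs 42, were in cells with at least 2 Cd40lg UMIs.

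Which tumor a cell came from could be read for few cells. The hashtag oligonucleotides are short barcodes on antibodies, shown because they are the only link of a cell to its tumor; all letters are the barcode.
B16_1: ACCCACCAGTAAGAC
B16_2: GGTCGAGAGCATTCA
B16IL33_1: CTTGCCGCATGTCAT
B16IL33_2: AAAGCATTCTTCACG

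The tags held 554, 929, 102 and 145 UMIs in the whole library, so 27 of the 455 Cd40lg+ cells could be given a tumor, by UMIs of tags of 1 tumor only. Cd40lg+ cells made up 22 of 355 Tconv cells tagged B16 (6.20%, 3.92 to 9.23%) and 5 of 49 tagged B16–IL-33 (10.2%, 3.40 to 22.2%). At this depth a difference could not be detected, with 4.01 points between the tumors (-3.45 to 16.2). The number of tag UMIs also differed between tumors, and its part was not tested.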

How the data were processed

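Gene expression was deposited by the authors as unnormalized UMI counts, made by Cell Ranger on a combined human and mouse (mm10) reference. The matrix header names version 3.1.0, and the submitters' processing notes name 6.1.1. Hashtags were also deposited as UMI counts, and their counting tool is not given in the sources used here. The TCR table of filtered contigs was deposited with counts of UMIs and with clonotypes. Of 31053 mouse gene identifiers, 30934 matched GENCODE vM21, the source of all positions (mm10). 0 columns of other libraries were present.

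The study's limits were kept (200 to 2500 genes, mitochondrial share under 5%). UMIs were summed over the cells of a set and scaled to CPM. Intervals at 95% were exact Poisson for a CPM, exact Clopper-Pearson for a share, conditional binomial for a ratio, and square-and-add for a difference, in SciPy 1.17.1 and NumPy 2.4.6 under Python 3.11.15, with pandas 2.3.3 and matplotlib 3.10.9. Shares at 1500 UMIs per cell are hypergeometric expectations over cells with at least that many. A gene passed the fold at a ratio of at least 1.5 or at most 0.667, among genes with at least 100 UMIs; list genes with at least 20 could be named, and so could the 15 highest and 10 lowest ratios without genes of the rule or receptor segments. A γδ-gene cell had a UMI of Trdc, Tcrg-C1, Tcrg-C2 or Tcrg-C4. A tumor was assigned where every tag UMI of a cell came from that tumor. An expanded clone had at least 2 quality-filtered cells of a Cell Ranger clonotype. The ratio and its interval were run on simulated Poisson counts. There 95.5% of the intervals of changed genes and 95.7% of those of unchanged genes held the set ratio. The simulated counts had no variation between cells, so they cannot show how the intervals hold for genes counted in few cells.

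No doublet caller was run; an alternative left out cells with 2 or more beta chains (15 Cd40lg+ and 28 comparison cells). The cells, the 28 gene lists (310 of 312 genes found) and the alternatives were chosen with earlier results of these data known. Leaving out cells with Ikzf2 or Il2ra, and the top cell of each gene, were added after seeing the data, as were the counts of TRBV16 in Il17a+ cells. Some genes of the lists are not reported here.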

Additional observations from a re-analysis of the deposited data

How the results depend on the processing

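Of 319 gene ratios recomputed for the named genes, 282 stayed within their counting interval, 35 moved out of it in the same direction and 2 reversed, both for Cxcl2: to 0.50 when Cd4 was asked of neither set and to 0.57 without the top cell of each set. Weighting comparison cells to the depths of the Cd40lg+ cells, a mitochondrial limit of 10% and leaving out cells with 2 or more beta chains moved none of 27. Asking Cd4 of Cd40lg+ cells too left 220 of them, at least 2 Cd40lg UMIs left 128, and only cells with a clonotype left 298 and 424 comparison cells, with 118 genes lower of fewer tested. Asking Cd4 of neither set gave 2014 comparison cells, 97 genes higher and 499 lower, with more genes tested. Averaging CPM over single cells gave 327 genes lower. A minimum of 50 UMIs gave 176 higher and 459 lower, one of 300 UMIs gave 12 and 45, and a fold of 2 gave 8 and 63. Without Ikzf2 or Il2ra cells there were 350 comparison cells, 30 genes higher and 41 lower, with fewer genes tested. The share of Cd40lg+ cells in expanded clones was 7.38% for clones of at least 3 cells and 25.3% by beta CDR3; the difference from comparison cells was 3.61 to 7.85 points over the alternatives, and of the 4 definitions of a clone the interval included 0 for beta CDR3. No paired analysis was possible because there is 1 library and no result comes from a test. Depth limits shares of cells with a UMI, and the cause of each change was not tested.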
